A study of Mus musculus with 10 samples.

Results

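After 6 and 8 d of doxycycline (Dox), 1062 of 18193 measured genes were higher (5.84% of those tested) and 1067 were lower (5.86%) in *Max*-null ESCs grown in LIF+serum than on the untreated array of the same set. Measured against the other untreated array of the series instead, 945 of these gains and 795 of these losses were called again in the same direction (5.19% and 4.37% of all genes). The gene lists counted here were written with results of these data known. *Gm7969* had the largest gain that stayed, and the gains held 25 of 36 measured genes of meiosis and germ cells, 11 of 15 of the two-cell embryo and 5 of 15 each of class I histocompatibility with antigen presentation and of retinoic acid. The losses that stayed were led by *2010204K13Rik*, the keratin gene *Krt17*, the metallothionein gene *Mt1* and the noncoding RNA gene *Dancr*, and they held 15 of 42 genes of nucleolar ribosome biogenesis, 8 of 23 of nucleotide synthesis, 4 of 8 of polyamines and 6 of 15 of glycolysis.

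These are 3 of the 10 arrays of the series, chosen by their labels. They hold 1 array after 6 d of Dox, 1 after 8 d and 1 untreated array that the labels name as the reference of both, here called the second untreated array. All 3 came from male *Max*-null ESCs of strain 129SV, embryonic stem cells with both endogenous copies of *Max* disrupted, which live on a *Max* cDNA in the *ROSA26* locus under the tetracycline-off system, so that untreated cells carry the disruption too and Dox switches the cDNA off. LIF (leukaemia inhibitory factor) with serum is the conventional culture medium of mouse ESCs. A first untreated array, with Dox 1, 2, 3 and 4 d, makes up the other set in this medium, and a pair of arrays, untreated and Dox 6 d, comes from 2i+LIF, a medium with inhibitors of MEK and GSK3β. Nothing in the labels says that arrays came from separate cultures or clones, and each condition is 1 array. The p-values therefore cover no more than the spread among these arrays, which may be technical or hold change between days of Dox.

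MAX is the obligate partner of MYC proteins. The heterodimer binds the E-box hexamer CACGTG and raises transcription of genes of ribosome assembly, nucleotide synthesis and metabolism. MAX also pairs with MXD proteins, MNT and MGA, which repress, and with MGA it belongs to the polycomb complex PRC1.6, which in ESCs keeps many germ cell genes silent. MYC and MAX are needed for ESCs to renew themselves in serum.

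Affymetrix whole-genome mouse arrays report probe sets, groups of short oligonucleotides against 1 transcript, and the authors deposited log2 values after robust multi-array analysis (RMA). A log2 difference of 1 is a change by a factor of 2. Each gene was read from its brightest probe set with 1 gene symbol. The mean of 6 and 8 d was compared with each untreated array in limma, and a gene or probe set was called at a Benjamini-Hochberg adjusted p under 0.05 over all 45037 probe sets. The spread came from the differences within the pairs of 1 and 2 d, 3 and 4 d and 6 and 8 d, so that the single untreated arrays were taken to vary like these pairs. Any true change between the days of a pair is part of this spread. Whether the untreated arrays vary alike was not tested, and if they vary more the p-values are too small. The first untreated array is of the other set, so the comparison with it also holds any difference between sets. "Stayed" stands for a call in the same direction against each untreated array.

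Over probe sets, 2344 were higher (5.2%) and 2056 lower (4.57%) than on the second untreated array, and 2051 (4.55%) and 1475 (3.28%) of them stayed. The first untreated array as reference gave 7111 higher and 7068 lower probe sets (15.8% and 15.7%). At least 4-fold changes at both 6 and 8 d against the second untreated array were seen for 361 higher (0.802%) and 117 lower (0.26%) probe sets, and for 196 higher (1.08%) and 77 lower (0.423%) genes. Without the 8 d array 1249 probe sets were lower than on the second untreated array, and without the 6 d array 925 lower ones stayed. The median change over all genes was -0.06 (log2) against the second and -0.17 against the first untreated array. Exactly equal values occurred between every pair of the 8 arrays in LIF+serum, in 7 to 97 of the probe sets, but in 0 between any of them and the 2i+LIF arrays. The 3′ probe set of beta-actin exceeded the 5′ one, an excess that grows as RNA shortens, by 0.88 (log2) on the second untreated array, by 1.46 at 6 d and by 1.22 at 8 d, against 0.41 on the first untreated array. That of *Gapdh* stayed between -0.09 and 0.12 on all 8 arrays. The part of RNA quality in any result was not tested.

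The probe set of *Max* read 5.74 (log2) on the second untreated array, 6.20 at 6 d, 6.19 at 8 d and 5.57 on the first untreated array (adjusted p = 0.193 against the second). Its position relative to the disruption and the cDNA is unknown here, and it was not taken as a check of the labels. Of 10 ESC markers, *Pou5f1* read 12.20 untreated, 12.38 and 11.92, *Nanog* rose (adjusted p = 0.0266) and *Utf1* and *Lin28a* fell. Of 9 fibroblast markers *Pdgfrb* alone was called, at 5.61 untreated and 7.65 and 8.36 on the late arrays, while *Col1a1* read 4.08, 4.07 and 4.64. Without the 8 d array *Pdgfrb* lost its call (adjusted p = 0.057). The log2 of the summed level of this list was 8.31, 8.74 and 9.41 on those arrays. Over all genes, as background of the marker lists, 5.84% were higher and 5.86% lower. Of 5 macrophage markers 1 was called (*Cd14*, which did not stay) and of 4 endothelial markers 0 were. The part of such cells in any result was not tested.

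**Figure D1:**
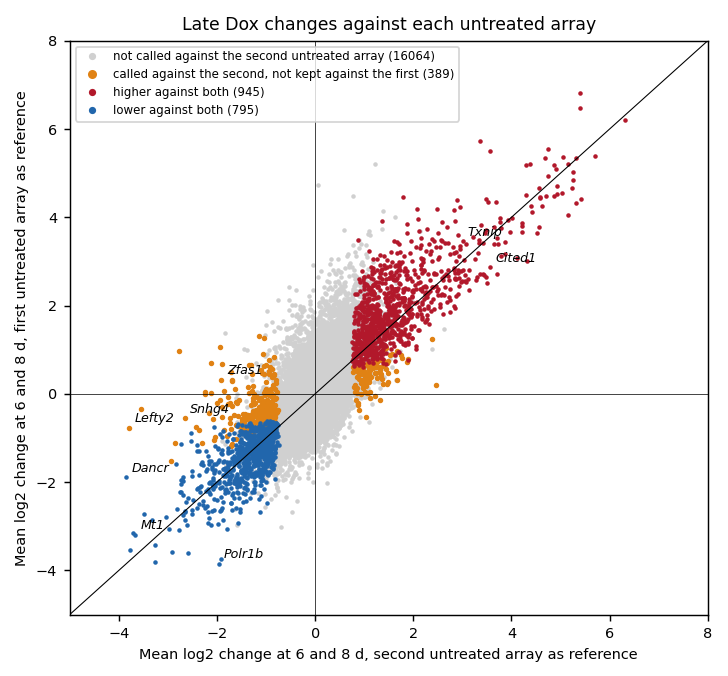
Mean log2 change at 6 and 8 d for 18193 genes, with the second untreated array (horizontal axis) and the first (vertical axis) as reference, each point 1 gene and the line marking equal change. The 945 gains and 795 losses called against both lie in the upper right and lower left, some of them far from the line, such as *Dancr* (-3.85 and -1.89) and *Polr1b* (-1.97 and -3.85), while *Lefty2*, *Snhg4* and *Zfas1* are far below 0 on the horizontal axis and closer to 0 on the vertical one. Both axes share the arrays at 6 and 8 d.

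The E-box that MYC and MAX read, CACGTG, is the same on both strands. It was searched in RefSeq promoters (GRCm38.p6) that run from 250 bases before to 50 bases after the start. Of 18109 promoters of measured genes 8.72% held it, of 981 promoters of gains that stayed 13.7% and of 822 promoters of losses that stayed 11.4%. Of 38 promoters of the list of meiosis and germ cell genes 19 held it, of 40 of nucleolar ribosome biogenesis 8, of 12 of class I histocompatibility and antigen presentation 8.33%, and of 10 of two-cell embryo genes 0. Such a match is a description of the letters and not of binding. The 250 bases before the start are shown for the list members with the largest gains and losses that hold the motif there, 5′ to 3′ in the direction of the gene, with CACGTG in capitals. The gains are *Taf7l* (chrX:134476491-134476740, minus strand), *Slc25a31* (chr3:40708621-40708870, plus strand), *Mov10l1* (chr15:88982744-88982993, plus strand) and *Sycp1* (chr3:102936101-102936350, minus strand).
Taf7l: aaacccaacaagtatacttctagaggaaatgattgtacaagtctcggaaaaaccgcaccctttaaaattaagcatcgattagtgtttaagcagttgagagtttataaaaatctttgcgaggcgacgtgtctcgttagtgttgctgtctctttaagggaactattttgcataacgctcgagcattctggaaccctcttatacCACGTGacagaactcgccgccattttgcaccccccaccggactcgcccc
Slc25a31: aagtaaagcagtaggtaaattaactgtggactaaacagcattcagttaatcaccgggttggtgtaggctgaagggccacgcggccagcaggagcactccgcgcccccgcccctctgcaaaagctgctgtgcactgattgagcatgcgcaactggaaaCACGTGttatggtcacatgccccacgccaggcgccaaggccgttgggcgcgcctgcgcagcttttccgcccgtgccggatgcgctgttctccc
Mov10l1: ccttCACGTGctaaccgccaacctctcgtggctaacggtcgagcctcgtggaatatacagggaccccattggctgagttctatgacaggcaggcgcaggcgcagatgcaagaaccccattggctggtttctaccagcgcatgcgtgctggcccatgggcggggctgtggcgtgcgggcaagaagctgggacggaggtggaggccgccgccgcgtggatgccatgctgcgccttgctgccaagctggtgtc
Sycp1: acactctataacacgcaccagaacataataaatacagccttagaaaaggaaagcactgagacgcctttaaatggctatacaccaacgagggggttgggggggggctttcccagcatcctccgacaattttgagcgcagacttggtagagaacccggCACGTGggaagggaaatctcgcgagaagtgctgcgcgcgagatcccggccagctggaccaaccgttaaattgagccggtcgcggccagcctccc

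The losses are *Atic* (chr1:71556906-71557155), *Foxd3* (chr4:99656049-99656298), *Mrpl36* (chr13:73330759-73331008) and *Dnmt3l* (chr10:78049592-78049841), all on the plus strand. In *Atic* the motif starts 7 bases before the start of the gene and in *Foxd3* 217 bases before it, against 49 bases in *Taf7l* and 246 in *Mov10l1*.
Atic: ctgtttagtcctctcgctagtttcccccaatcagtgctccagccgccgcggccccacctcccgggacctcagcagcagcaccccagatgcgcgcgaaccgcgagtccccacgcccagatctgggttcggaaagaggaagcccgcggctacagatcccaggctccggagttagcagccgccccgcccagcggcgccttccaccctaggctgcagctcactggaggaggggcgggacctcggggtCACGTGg
Foxd3: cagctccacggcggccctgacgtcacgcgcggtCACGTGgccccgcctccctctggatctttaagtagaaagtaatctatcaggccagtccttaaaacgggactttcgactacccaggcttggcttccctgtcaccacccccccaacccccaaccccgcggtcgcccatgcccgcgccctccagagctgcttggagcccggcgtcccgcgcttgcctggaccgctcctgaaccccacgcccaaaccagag
Mrpl36: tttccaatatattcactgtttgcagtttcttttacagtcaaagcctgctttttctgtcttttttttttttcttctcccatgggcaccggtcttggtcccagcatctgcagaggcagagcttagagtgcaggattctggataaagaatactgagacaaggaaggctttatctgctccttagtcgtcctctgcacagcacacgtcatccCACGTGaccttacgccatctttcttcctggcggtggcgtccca
Dnmt3l: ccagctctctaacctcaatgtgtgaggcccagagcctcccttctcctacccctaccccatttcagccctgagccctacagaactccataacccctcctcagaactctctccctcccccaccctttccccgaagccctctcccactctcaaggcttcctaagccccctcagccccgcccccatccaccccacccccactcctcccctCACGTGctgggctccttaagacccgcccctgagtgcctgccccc

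*Taf7l*, whose product takes the place of the TFIID subunit TAF7 in germ cells, read 5.70 on the second untreated array against 11.10 at 6 d, 10.94 at 8 d and 5.67 on the first untreated array. *Slc25a31*, the ADP/ATP carrier of sperm, read 6.04, 11.20, 10.74 and 6.26 in that order, *Mov10l1* 6.03, 10.59, 10.33 and 6.33 and *Sycp1* 5.35, 9.55, 9.74 and 4.46. In all 4 genes both late arrays lay above both untreated arrays by a wide margin. Of the losses, *Atic*, an enzyme of purine synthesis, read 11.46, 9.50, 9.41 and 11.86, *Foxd3* 8.57, 7.13, 6.68 and 8.30, *Mrpl36* 9.23, 7.37, 8.02 and 9.04 and *Dnmt3l* 10.98, 9.30, 9.59 and 12.05. Both late arrays lay below both untreated arrays in these genes. The gains and losses shown were chosen for large changes on the same arrays, which favours such an order.

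The 15 largest gains that stayed ranged from 30.5-fold to 79.8-fold (adjusted p from 0.000445 to 0.0104). *Gm7969* led them, at 4.44 on the second untreated array, 10.11 at 6 d, 11.42 at 8 d and 4.55 on the first untreated array. The others were *9530059O14Rik*, *Usp17la*, *Dazl*, *Stra8*, *BC080696*, *Taf7l*, *D13Ertd608e*, *Tcstv1*, *Sp110*, *Gm20767*, *Nxf2*, *Ubtfl1*, *Zfp352* and *Slc25a31*. *Nxf2*, an mRNA export factor gene of germ cells, read 3.99, 9.19, 9.08 and 5.08, and *Ubtfl1*, a relative of the ribosomal RNA transcription factor UBTF that is active in early embryos, 3.54, 8.68, 8.51 and 3.24. All 15 were already at least 2-fold above the first untreated array on average at 3 and 4 d, beside 6.68% of all genes. Of these, 5 stood higher at 8 d than at 6 d, beside 54.9% of all genes. In 2i+LIF 7 of the 15 were at least 2-fold higher after 6 d of Dox than on the untreated array (1 array each, no test), and *Gm7969* differed by -1.30 on the log2 scale.

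Of 36 measured genes of meiosis and germ cells 27 rose, 0 fell and 9 did not pass, and 25 of the 27 stayed, beside 5.19% of all genes (median change 2.27 on the log2 scale, all genes -0.06). This list was written with results of these arrays known, so its direction is not independent evidence. *Mei1*, which is needed for meiotic chromosome synapsis, rose from 3.75 on the second untreated array to 8.25 at 6 d and 8.36 at 8 d, with 4.53 on the first untreated array. *Tdrkh*, a Tudor-domain gene of piRNA processing, rose from 5.63 to 6.98 and 7.02 (first untreated array 6.30), and *Piwil2*, a PIWI protein gene, from 6.91 to 8.52 and 8.46 (first untreated array 6.93). *Rec8*, the meiotic kleisin, and *Spo11*, the enzyme of meiotic DNA breaks, rose 3.18-fold and 2.54-fold against the second untreated array. Neither was called against the first, at 1.97-fold and 1.36-fold (adjusted p = 0.113 and 0.361). *Rec8* lost its call against the second in each fit without 1 Dox array but that without 6 d. *Spo11* lost it without the 3, 4 or 8 d array. *Piwil1*, *Tdrd1* and *Tdrd5*, which also act with piRNAs, had log2 changes of -0.35, 0.45 and 0.15 and did not pass.

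Of 15 measured two-cell embryo genes 11 rose and all 11 stayed and were at least 4-fold higher at both 6 and 8 d, which held for 1.08% of all genes. The same holds for this list. *Arg2*, the mitochondrial arginase, rose 22.8-fold against the second untreated array. *Duxf3*, the *Dux* gene whose product switches on this programme, rose by 2.71 (log2, with a standard error of 0.46 and an adjusted p of 0.00961), and the change was 3.42 against the first untreated array. Among 31 *Tex* genes, named for their expression in testis, 6 rose (*Tex11*, *Tex12*, *Tex15*, *Tex16*, *Tex30* and *Tex101*) and 0 fell, and all 6 stayed, beside 5.19% of all genes, although *Tex30* no longer passed when the 8 d array was left out (adjusted p = 0.0548). *Rhox13*, a homeobox gene of male germ cells, rose from 6.74 to 9.80 and 10.56 (first untreated array 7.48).

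Products of class I histocompatibility genes present peptides on the cell surface. Of 15 measured genes of class I and antigen presentation 5 rose, 0 fell and 10 did not pass, and all 5 stayed (background 5.19%). The median log2 change of the list was 0.47 against the second and 0.76 against the first untreated array. *H2-K1* read 8.72 on the second untreated array, 11.50 at 6 d, 11.33 at 8 d and 7.64 on the first untreated array, a rise of 2.70 (standard error 0.29, adjusted p = 0.00198). *H2-D1* read 8.29, 10.92, 11.15 and 7.86, and *H2-Q10* 4.77, 8.07, 7.39 and 4.39. *H2-Q2* and *H2-Bl* were 7.68-fold and 6.01-fold higher. In all 5 genes both late arrays lay above both untreated arrays. They were picked by calls against both untreated arrays, which favours this order. These genes are near-identical in sequence and the probe sets of *H2-K1* and *H2-D1* are of a kind that can bind several of them, so the 5 calls are not separate, and 8 of the 9 probe sets of *H2-D1* had the same sign. The genes that load or trim the peptides did not pass. *B2m*, the light chain, read 8.97, 9.23 and 9.64 (adjusted p = 0.31), *Tap1*, the peptide transporter, 5.93, 6.19 and 6.31, and *Nlrc5*, the activator of class I genes, 3.68, 4.35 and 3.72. Of 20 interferon response genes 1 rose (*Usp18*, 3.75, 5.57 and 6.39) and 3 fell, beside 5.84% and 5.86% of all genes.

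Of 15 measured genes of retinoic acid synthesis and response 5 rose, 0 fell and 10 did not pass, and all 5 stayed, beside 5.19% of all genes. The median change of the list was 0.43 against the second untreated array (all genes -0.06) but -0.05 against the first (all genes -0.17). *Rarb*, a receptor that is itself a target of retinoic acid, read 3.70 on the second untreated array, 6.39 at 6 d, 6.45 at 8 d and 3.74 on the first untreated array (a log2 change of 2.72 with a standard error of 0.25, adjusted p = 0.00129). *Aldh1a2*, the enzyme of the last step of its synthesis in embryos, read 5.77, 7.96, 8.06 and 5.57, and *Cyp26a1*, which breaks it down, 5.43, 7.27, 8.42 and 5.92. The carrier genes *Rbp4* and *Crabp1* rose 3.65-fold and 2.79-fold. The receptor genes *Rara* and *Rarg*, with changes of -0.65 and 0.59, and *Rdh10*, an enzyme of the first step, with 0.43, did not pass. *Hoxd1* rose from 4.50 to 7.50 and 7.16 (first untreated array 3.17). It was among 33 *Hox* genes, of which 3 rose and 2 stayed, beside 5.84% and 5.19% of all genes. The other that stayed was *Hoxb2* (1.44 on the log2 scale), which lost its call without the 8 d array. In 2i+LIF the log2 changes of *Rarb*, *Aldh1a2* and *Cyp26a1* were 0.00, -0.22 and 0.37, from 1 array each.

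**Figure D2:**
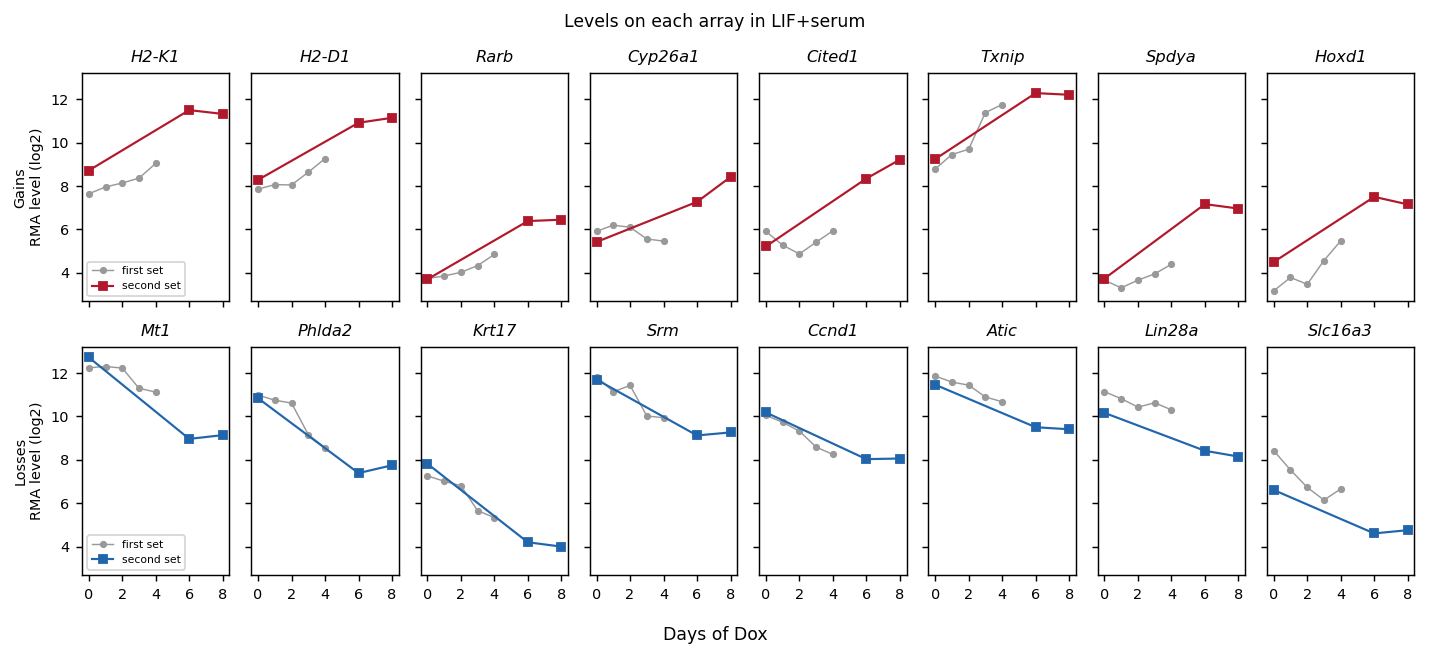
Log2 RMA levels (vertical axes) of 8 genes that rose (upper row) and 8 that fell (lower row), plotted by the number of days on Dox (horizontal axes), each point being 1 of the LIF+serum arrays, with grey lines for the first set (untreated, 1, 2, 3 and 4 d) and coloured lines for the second set (untreated, 6 and 8 d). In every panel both late arrays lie on the same side of both untreated arrays, which the choice of called genes favours. *Cited1* at 3 and 4 d (5.41 and 5.93) is near its untreated levels (5.91 and 5.22).

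Of 14 WNT targets and feedback genes 3 rose, 0 fell and all 3 stayed, beside 5.19% of all genes (median change 0.03, and -0.13 against the first untreated array). In the order used above, *Cdx1* read 5.96, 7.60, 7.95 and 5.61 and *Axin2*, the negative feedback gene, 7.22, 8.27, 8.45 and 7.25, although its other probe set changed with the opposite sign. Without the 3, 4, 6 or 8 d array *Axin2* lost its call (adjusted p up to 0.13). *Wif1* rose 3.65-fold. *Sp5* and *Notum*, also WNT targets, had changes of -1.08 and -0.87 and did not pass. *Txnip*, which restrains glucose uptake and answers to the MLX partner proteins of the MAX network, rose 8.01-fold, from 9.24 to 12.29 and 12.21 (first untreated array 8.79, adjusted p = 0.000785). *Myc*, at 9.48, 9.57 and 9.65, and *Mycn*, at 10.80, 11.62 and 9.55, did not pass.

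Of 21 G1 cyclins, their kinases and inhibitors 3 rose and 4 fell, and 3 and 3 stayed (backgrounds 5.19% and 4.37%). *Ccne2* rose from 6.29 to 8.82 and 8.89 (first untreated array 5.38) while *Ccne1*, the other E-type cyclin, fell from 10.38 to 8.26 and 9.09 (first untreated array 11.14). *Ccnd1* fell from 10.18 to 8.03 and 8.06 (first untreated array 10.05), and *Cdk4*, its kinase, fell 2.55-fold. The inhibitors *Cdkn1a* and *Cdkn2c* rose 2.29-fold and 2.46-fold, and *Cdkn2a*, *Cdkn2b* and *Cdkn2d* had changes of 0.92, 0.89 and 1.00 and did not pass. Of 22 p53 targets 3 rose (*Pmaip1*, *Sesn1* and *Cdkn1a*), 0 fell and all 3 stayed, beside 5.19% of all genes. Against the first untreated array alone, 7 were called higher and 3 lower, beside 16.6% and 16.9% of all genes. The median change of the list was 0.18 against the second and 0.50 against the first. *Pmaip1*, which encodes the death-promoting NOXA, rose from 7.15 to 9.01 and 9.19 (first untreated array 5.64). Without the 8 d array *Cdkn1a*, *Cdkn2c* and *Sesn1* lost their calls (adjusted p up to 0.0886, 0.0541 and 0.107), and without the 6 d array *Ccne1* did (0.0727). Of 18 BCL2 family and caspase genes 0 passed in limma (median -0.20), beside 5.84% higher and 5.86% lower of all genes. Against the first untreated array 3 of them were called higher and 4 lower, beside 16.6% and 16.9% of all genes. *Tfdp1* and *Tfdp2*, which encode partners of E2F proteins and stand on the PRC1.6 list, changed in opposite directions, at 10.49, 9.17 and 9.06 for *Tfdp1* and 8.66, 10.04 and 9.82 for *Tfdp2*. Without the 6 or the 8 d array *Tfdp2* lost its call (adjusted p up to 0.0809). *Pcgf6*, the defining subunit of PRC1.6, read 10.25, 9.94 and 9.86 and did not pass.

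The 15 largest losses that stayed ranged from 6.75-fold to 14.4-fold (adjusted p from 0.000434 to 0.014). *Dancr* read 9.99 on the second untreated array, 6.31 at 6 d, 5.98 at 8 d and 8.03 on the first untreated array, so that its loss was 14.4-fold against the second and 3.71-fold against the first. *2010204K13Rik* read 10.12, 6.28, 6.43 and 9.90. *Krt17* read 7.82, 4.20, 4.00 and 7.26, while its other probe set changed with the opposite sign. For *2010204K13Rik* and *Krt17* the losses differed little between references, at 13.6-fold and 13.2-fold against the second and 11.7-fold and 8.94-fold against the first untreated array. *Mt1*, which binds zinc and copper, read 12.72, 8.96, 9.14 and 12.24, and *Phlda2*, an imprinted gene that limits placental growth, 10.84, 7.39, 7.75 and 10.98. *Stmn2*, a microtubule regulator of neurons, read 11.94, 8.82, 8.08 and 11.16. *Cbr3*, a carbonyl reductase gene, fell 9.56-fold, *Cds2*, an enzyme of phospholipid synthesis, 8.21-fold and on all 6 of its probe sets, and *Apela*, the hormone gene that ESCs secrete, 6.75-fold. The egg coat gene *Zp3*, *Enpp3*, *Pla1a*, *Pdzd4* and the noncoding *Lncenc1* complete the named losses, and 1 further probe set, annotated to a microRNA gene, is not described because such probe sets do not read mature microRNAs. Of the 15 genes 8 were at least 2-fold below the first untreated array on average at 3 and 4 d, beside 3.16% of all genes. Of the 15, 4 stood higher at 8 d than at 6 d, beside 54.9% of all genes.

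Of 42 measured genes of ribosome assembly in the nucleolus 16 fell, 0 rose and 26 did not pass, and 15 stayed, beside 4.37% of all genes (median change -0.76 on the log2 scale, and -0.88 against the first untreated array). *Polr1b*, the second largest subunit of RNA polymerase I, read 8.42 on the second untreated array, 6.35 at 6 d, 6.57 at 8 d and 10.31 on the first untreated array, a loss of 3.90-fold and 14.4-fold. *Nolc1*, a chaperone of small nucleolar ribonucleoproteins, read 10.92, 9.32, 9.29 and 10.80, and *Nop16* 9.00, 7.10, 7.76 and 10.35. *Nhp2*, of the H/ACA particles, fell 2.64-fold and *Polr1a*, the largest polymerase subunit, 2.05-fold. *Gnl3* (nucleostemin) fell against the second untreated array, with a change of -0.91 on the log2 scale, but differed by -0.24 from the first and was not called there (adjusted p = 0.435), and it lost its call against the second in each fit without 1 Dox array but that without 8 d (up to 0.105). The abundant nucleolar genes *Ncl*, *Fbl* and *Npm1* had changes of -0.40, -0.28 and 0.03 and did not pass. Of 76 mitochondrial ribosomal protein genes 11 fell, all of which stayed (background 4.37%), and 0 rose (median -0.37), with *Mrpl34* at 9.85, 7.91, 8.46 and 10.21 and *Mrps34* at 11.17, 9.64, 9.51 and 11.70. Of 46 cytosolic ribosomal protein genes 2 fell and 1 stayed (median -0.03), beside 5.86% and 4.37% of all genes. Of 78 respiratory chain genes 2 rose and 0 fell (median 0.04), beside 5.84% and 5.86% of all genes.

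Of 23 measured nucleotide synthesis genes 10 fell, 0 rose and 13 did not pass, and 8 stayed, beside 4.37% of all genes (median -0.73). The losses include *Atic*, *Adsl*, *Gart* and *Pfas* of the purine pathway and *Dhodh* and *Umps* of the pyrimidine pathway. *Adsl* read 9.71, 7.92, 8.34 and 10.19 and *Gart* 10.91, 9.31, 9.74 and 11.42. *Cad*, which starts pyrimidine synthesis, fell 2.16-fold against the second untreated array and differed 1.24-fold from the first, where it was not called. Of 8 polyamine genes 5 fell, 3 did not pass and 4 stayed (background 4.37%; median -1.08, and -0.70 against the first untreated array). *Srm*, spermidine synthase, read 11.70, 9.12, 9.26 and 11.83, the largest change of this list (-2.50, standard error 0.22, adjusted p = 0.00106), and *Odc1*, which makes putrescine, 12.06, 10.98, 10.91 and 12.13. *Dhps* and *Dohh*, which put the polyamine-derived amino acid hypusine on a translation factor, fell 2.06-fold and 2.25-fold, although the other probe set of *Dohh* had the opposite sign. *Dhps* lost its call without the 6 or the 8 d array (adjusted p up to 0.0693) and *Dohh* without the 6 d array (0.0581). *Oaz1* and *Azin1*, which hold the activity of ODC1 down or up, had changes of -0.05 and -0.11 and did not pass.

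Of 15 glycolysis genes 6 fell, 0 rose and 9 did not pass, and all 6 stayed, beside 4.37% of all genes (median -0.80). *Pfkl*, a subunit of phosphofructokinase, read 10.06, 7.91, 8.27 and 11.03, *Tpi1* 12.33, 10.33, 10.82 and 12.53 and *Ldha*, lactate dehydrogenase, 12.65, 10.84, 11.66 and 12.95. The lactate exporter *Slc16a3* read 6.61, 4.61, 4.76 and 8.42. *Ldha* lost its call without the 3, 4 or 6 d array (adjusted p up to 0.0539). All 4 lay lower on both late arrays than on both untreated arrays, which their choice among called genes favours. In 2i+LIF the same genes differed the other way after 6 d of Dox, by 1.74, 1.82, 0.82 and 3.22 on the log2 scale for *Pfkl*, *Tpi1*, *Ldha* and *Slc16a3*, from 1 array each and with no test. The neuronal glucose transporter *Slc2a3* had a change of 0.64 and did not pass. Of 17 targets of NRF2, the regulator of the oxidative stress response, 7 fell, 0 rose and 6 stayed (background 4.37%; median -0.65). *Gstm1* read 8.86, 6.32, 6.44 and 8.77 and *Gstm2* 8.07, 5.78, 5.16 and 7.84, although these paralogues may share signal, and *Gsr*, glutathione reductase, read 9.36, 7.65, 7.84 and 9.20.

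**Figure D3:**
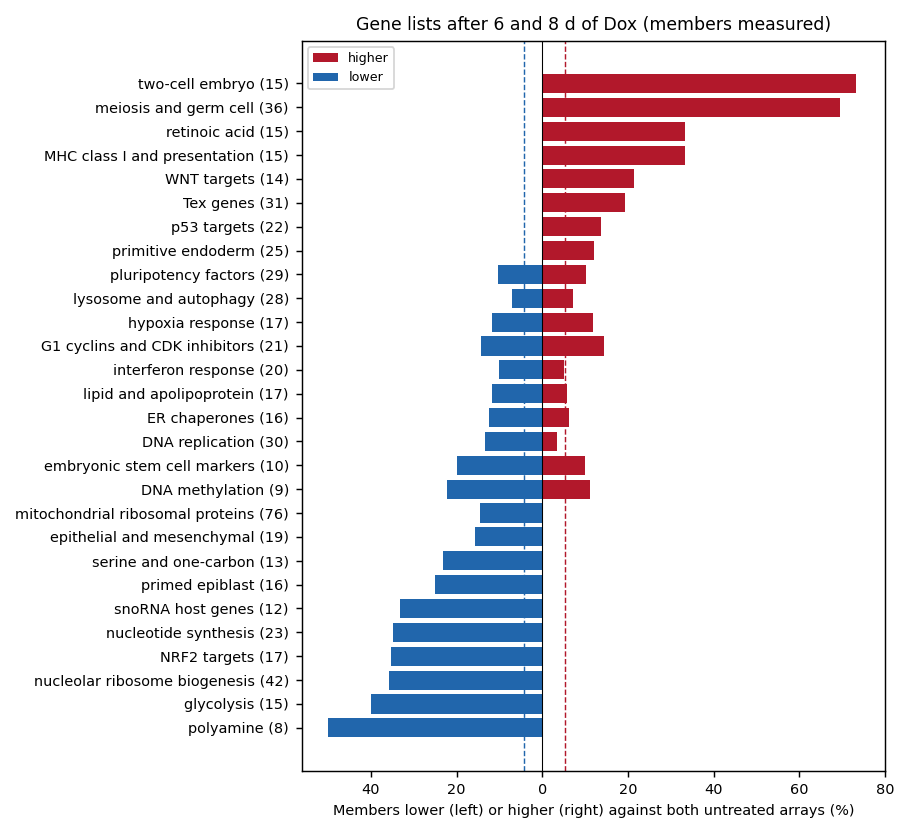
Share of measured members (horizontal axis, percent) of each gene list that were called lower (blue, left) or higher (red, right) at 6 and 8 d against both untreated arrays, with the number of members measured in brackets. Dashed lines mark the shares over all genes, 4.37% lower and 5.19% higher. Lists with at least 8 members measured and at least 3 called are drawn, and the meiosis, germ cell and two-cell lists reach farthest to the right and the polyamine list farthest to the left.

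Of 29 measured pluripotency factors 3 rose, 3 fell and 23 did not pass, and all 6 stayed, beside 5.19% higher and 4.37% lower of all genes (median change 0.24). *Klf4* read 11.12 untreated, 12.80 and 12.70 on the late arrays and 10.78 on the first untreated array, *Nanog* 11.76, 12.76, 12.67 and 11.22, and *Fbxo15* 11.19, 12.96, 12.70 and 11.30. *Lin28a*, which blocks the maturation of let-7 microRNAs, read 10.16, 8.42, 8.15 and 11.14. *Nanog* lost its call without the 6 or the 8 d array (adjusted p up to 0.0776) and *Utf1* without the 3, 4, 6 or 8 d array (up to 0.111). *Sox2*, *Zfp42* and *Esrrb* had changes of 0.60, 0.31 and 0.49 and did not pass. Of 16 genes of the primed epiblast 4 fell, 0 rose and all 4 stayed, beside 4.37% of all genes (median -0.50, and -0.25 against the first untreated array). They were *Dnmt3b*, at 11.36, 9.59, 9.67 and 11.65, *Foxd3*, *Fgf15*, which lost its call without the 6 or the 8 d array (adjusted p up to 0.0986), and *Cldn6*. With *Dnmt3b*, its cofactor *Dnmt3l* fell, while *Dnmt1* and *Dnmt3a* had changes of -0.11 and -0.46 and did not pass.

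Of 25 primitive endoderm genes 3 rose, 0 fell and all 3 stayed, beside 5.19% of all genes. The median change was 0.58 against the second and 0.13 against the first untreated array. Against the first array, 6 were called higher and 4 lower, beside 16.6% and 16.9% of all genes. *Cited1*, a transcriptional coactivator, read 5.22, 8.35, 9.22 and 5.91, *Pdgfra* 3.58, 5.78, 6.18 and 3.56 and *Plat* 4.25, 5.36, 6.35 and 3.98. *Plat* lost its call without any 1 Dox array but that at 6 d (adjusted p up to 0.136), and 1 of 3 probe sets of *Pdgfra* showed this sign. The defining genes *Gata4* (4.82, 5.07 and 4.86) and *Sox17* (5.16, 5.52 and 5.76) did not pass, and *Gata6* read 4.17, 4.25 and 6.24 (adjusted p = 0.369). Of 21 trophoblast genes *Krt7* alone was called, beside 5.84% higher and 5.86% lower of all genes. *Krt7* read 5.10, 8.31, 7.63 and 4.96, while *Cdx2* read 4.99, 4.90 and 4.91. Of 15 neural genes 4 fell and 2 stayed (*Stmn2* and *Gap43*), beside 5.86% and 4.37% of all genes. *Map2*, of the neuronal cytoskeleton, and *Ncam1*, an adhesion molecule, fell 5.35-fold and 3.60-fold against the second untreated array, and neither was called against the first (1.67-fold and 1.77-fold, adjusted p = 0.143 and 0.173). Without the 8 d array *Ncam1* lost its call against the second as well (0.0706).

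Of the 1062 genes that rose 89.0% stayed, and of the 1067 that fell 74.5%. Among the 272 losses that did not stay 51 had the opposite sign against the first untreated array, and among the 117 such gains 9 had. *Lefty2*, a Nodal antagonist, read 10.69 on the second untreated array, 7.23 at 6 d, 6.59 at 8 d and 7.68 on the first untreated array, a loss of 13.8-fold against the second (adjusted p = 0.00856) and a difference of 1.70-fold from the first (adjusted p = 0.374). *Lefty1* read 11.62, 9.44, 8.11 and 9.89, and *Fut9*, a fucosyltransferase gene, 6.94, 3.75, 3.04 and 3.73. *Fut9* on the first untreated array lay between the late arrays, while *Lefty2* and *Lefty1* there lay above both and below the second untreated array. *Lefty1* no longer passed when the 8 d array was left out (adjusted p = 0.053).

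Of 12 measured host genes of small nucleolar RNAs 10 fell against the second untreated array and 4 of them stayed, beside 5.86% and 4.37% of all genes. The median changes of the list were -1.78 against the second and -0.59 against the first. *Snhg4* read 9.91, 7.38, 7.11 and 7.80, *Zfas1* 10.61, 8.91, 8.50 and 8.38, *Snhg8* 10.73, 9.49, 9.40 and 9.38 and *Gas5* 11.65, 10.18, 9.00 and 10.65. On *Zfas1*, *Snhg8* and *Snhg6* the first untreated array lay within or beside the range of the late arrays. *Dancr*, *Snhg3*, *Snhg5* and *Snhg12* stayed, although the other 2 probe sets of *Snhg5* had the opposite sign and *Snhg3* lost its call against the second untreated array in each fit without 1 Dox array but that without 8 d (adjusted p up to 0.0699). A difference between the untreated arrays and an effect of Dox cannot be told apart for genes that did not stay.

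The change at 6 and 8 d differed from that at 3 and 4 d, each taken against the untreated array of its set, in 2 probe sets (0.00444% of those tested), both lower late, and 0 were higher. At an unadjusted p under 0.05 there were 3090 higher and 3487 lower. This count rests on single arrays: without the 6 d array 127 were higher and 335 lower, and without any other 1 of the Dox arrays 0 were called. Of the 945 gains that stayed 357 (37.8%) were at least 2-fold up at 3 and 4 d and of the 795 losses 254 (31.9%) were at least 2-fold down, beside 6.68% and 3.16% of all genes. The change at 3 and 4 d and the call of staying share the first untreated array. Its reading moves both the same way, and the part of this in the excess was not tested. The median change of these gains was 1.45 late and 0.81 at 3 and 4 d, and that of the losses -1.25 and -0.76. Both sets were selected on the late change, which favours a larger late median, and 0 of their genes passed the test of the difference. A further 360 gains and 284 losses changed by less than 1.5-fold at 3 and 4 d. The share of all genes with so small a change was not counted, so these counts do not show that it is unusual. The genes named next were chosen after their values were seen.

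*Cited1* led the gains of this kind. *Spdya*, an activator of cyclin-dependent kinases in meiosis, read 3.74, 7.17, 6.96 and 3.66 in the same order, and 3.95 and 4.40 at 3 and 4 d. *Slc22a21*, a carnitine transporter gene, read 3.49, 6.83, 6.76 and 3.62, and 3.69 and 4.01 at 3 and 4 d. *H2-Ab1*, a class II histocompatibility gene, read 5.38, 8.40, 8.50 and 5.92, and 5.15 and 6.67 at 3 and 4 d, and all 3 of its probe sets had the same sign. The transcription factor genes *Pparg* and *Tbx21* were 6.11-fold and 6.60-fold higher late. In 2i+LIF *Cited1*, *H2-Ab1*, *Tbx21* and *Pparg* were also higher after 6 d of Dox, by 2.46, 3.22, 2.68 and 1.55 on the log2 scale (1 array each, no test). Of the losses, *Stmn2* read 11.38 and 10.41 at 3 and 4 d, and *Dpysl3*, another neuronal cytoskeleton gene, read 8.87, 6.31, 5.97 and 8.36, and 8.00 and 7.58 at 3 and 4 d. None of these passed the test of the difference from 3 and 4 d after adjustment.

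**Figure D4:**
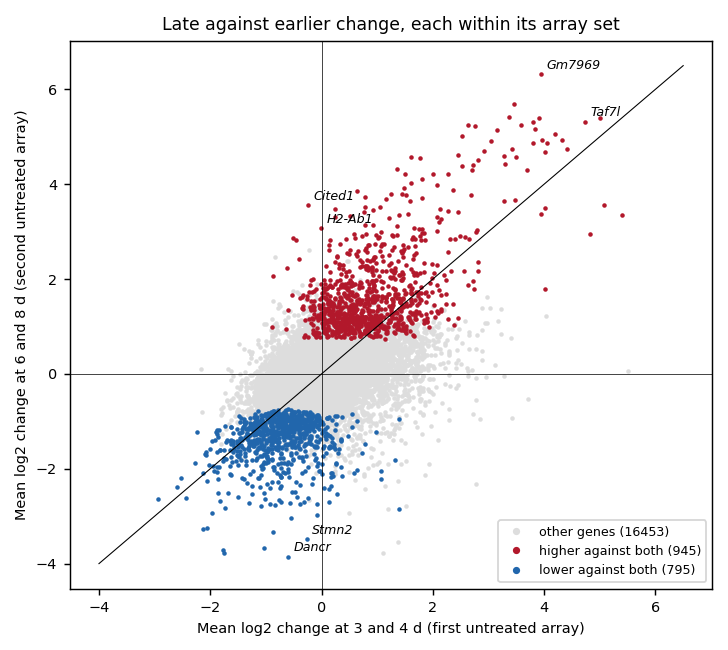
Mean log2 change at 6 and 8 d against the second untreated array (vertical axis) and at 3 and 4 d against the first (horizontal axis), each point 1 of 18193 genes and the line marking equal change. Most of the 945 gains and 795 losses that stayed (red and blue) lie farther from 0 on the vertical axis, which shows the change they were selected on. *Cited1*, *H2-Ab1* and *Stmn2* lie near 0 on the horizontal axis.

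Between 6 and 8 d, each 1 array with no test, 112 of 10720 genes that reached 6 (log2) on 1 of the 3 arrays were at least 2-fold higher and 118 at least 2-fold lower at 8 d, and 8 and 4 differed at least 4-fold. *Acta2* (smooth muscle actin) read 5.37 untreated, 6.06 at 6 d and 9.44 at 8 d, although the other 2 of its 3 probe sets had the opposite sign of late change, and *Tagln* (transgelin) 5.81, 5.97 and 9.09. *Cyp1b1* read 3.29, 4.76 and 7.05, the keratin gene *Krt8* 7.42, 7.27 and 9.39, *Id1*, a BMP target, 9.37, 8.99 and 11.02, and *Gata6* 4.17, 4.25 and 6.24. *Cryab*, *Anxa1*, *Nags* and *Rnf225* were 4.51-fold, 4.32-fold, 4.12-fold and 3.92-fold higher at 8 d than at 6 d. None of the 10 was called late against the second untreated array (adjusted p from 0.0523 to 0.689). The difference between 6 and 8 d is part of the spread in that test, so genes chosen for a large difference are unlikely to be called. The lack of calls therefore does not show that they were unchanged.

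Among the genes lower at 8 d, *Mycn* read 10.80 untreated, 11.62 at 6 d and 9.55 at 8 d, and *Diaph2*, a formin of the actin skeleton, 7.05, 6.09 and 3.72. *Meg3*, an imprinted noncoding RNA, read 10.81, 11.30 and 9.67 on the probe set used, and *Chchd10*, of mitochondria, 12.82, 12.59 and 10.86. *Ttn*, *Zmat4*, *Mcf2*, *Ifitm3*, *Slc11a1* and *Ryr3* were 3.20-fold to 4.16-fold lower at 8 d than at 6 d. Of the 10 genes 0 were called late, with the same limit from the way they were chosen. The log2 of the summed level of fibroblast markers was 8.74 at 6 d and 9.41 at 8 d. Of the 9 markers 5 were higher at 8 d, beside 54.9% of all genes. That of primitive endoderm genes was 11.91 and 12.34 and that of trophoblast genes 10.97 and 11.6. The sums of ESC markers (15.82 and 15.66), macrophage markers (7.22 and 7.2) and endothelial markers (8.84 and 8.45) were lower at 8 d. The part of any such cells was not tested.

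**Figure D5:**
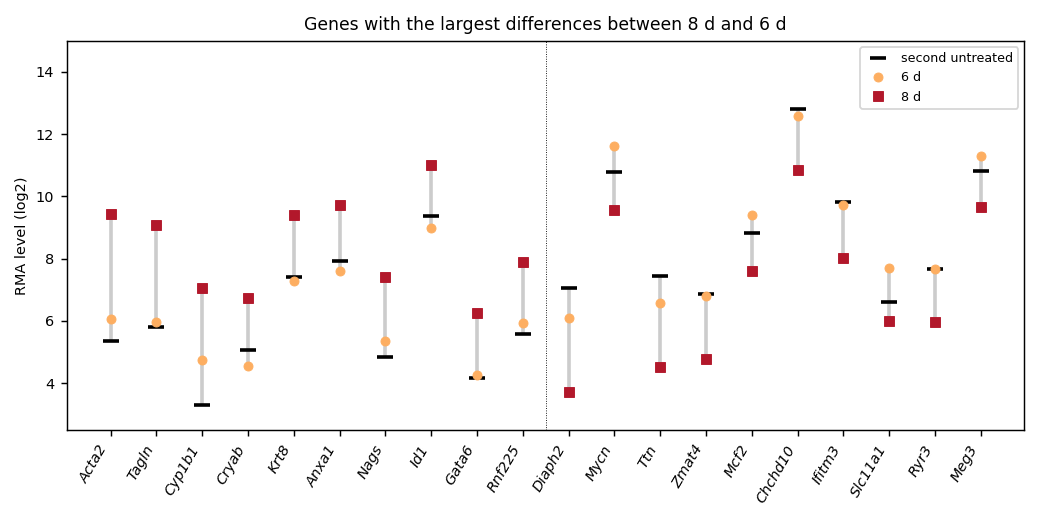
Log2 RMA levels (vertical axis) of the 10 genes with the largest rise (left of the dotted line) and the 10 with the largest fall (right) from 6 to 8 d. Bars mark the second untreated array, circles 6 d and squares 8 d, each 1 array. *Acta2* and *Tagln* are near their untreated levels at 6 d and at 9.44 and 9.09 at 8 d.

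In 2i+LIF, where 1 array after 6 d of Dox stands against 1 untreated array, 97 of the 945 gains (10.3%) were at least 2-fold higher and 52 of the 795 losses (6.54%) at least 2-fold lower, beside 1.74% and 2.39% of all genes. These arrays shared no exactly equal value with those in LIF+serum, and each medium was read only within itself.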

How the data were processed

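RNA from *Max*-null ESCs was hybridised to Affymetrix whole-genome mouse arrays, 1 array per condition. The authors deposited log2 values after RMA in the affy package for R (versions not given in the sources used here). Of 45101 probe sets 64 controls were left out, and 34945 of the remaining 45037 carry 1 symbol in the platform annotation (18193 genes), 932 carry several and 9160 carry none here. Per gene, the probe set with the highest mean over the 8 arrays in LIF+serum was used. Groups came from the labels.

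The 8 arrays were fitted in limma 3.58.1 (R 4.3.3) as 5 groups (first untreated, second untreated, 1 and 2 d, 3 and 4 d, 6 and 8 d), with 3 residual degrees of freedom, two-sided tests and Benjamini-Hochberg adjustment over all probe sets at 0.05. The fit was tested on simulated data. Differences between 8 and 6 d and all 2i+LIF values are differences of single arrays with no test. The number of arrays limits the precision.

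The members and the 53 gene lists were chosen with earlier results of these data known. Genes named by rule were the 15 largest gains and losses that stayed, the 10 largest differences each way between 8 and 6 d, and *Max*. Not every list is described in the text. From those described, some of the 6 largest changes and further members were named, so this choice was selective. Genes that changed little at 3 and 4 d and those that did not stay were chosen after their values were seen. Alternatives were leaving out each Dox array in turn, a trended robust prior, a filter at 6 (log2), another quantile normalization, other untreated references, the 3 late arrays alone, the mean over the probe sets of a gene and other fold thresholds. Promoters were read from RefSeq windows (GRCm38.p6).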

Additional observations from a re-analysis of the deposited data

Results flagged for a closer look

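A pair of probe sets changed differently at 6 and 8 d than at 3 and 4 d, each against the untreated array of its set, in the limma test of that difference. A probe set of *Clps*, the pancreatic colipase gene, read 7.03 untreated, 3.44 at 6 d and 3.04 at 8 d in the late set, against 4.45 on the first untreated array and 5.61 and 4.98 at 3 and 4 d. Its difference was -4.64 (log2) with a standard error of 0.41 and an adjusted p of 0.0441. The other probe set, which has no gene name here, read 4.45, 3.44 and 2.85 in the late set and 4.00, 6.86 and 6.77 on the first untreated array and at 3 and 4 d. Its difference was -4.12 (standard error 0.37, adjusted p = 0.0441).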

How the results depend on the processing

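With 1 Dox array left out in turn, 1616 to 2218 probe sets were higher and 1249 to 1915 lower than on the second untreated array, 1485 to 1953 and 925 to 1367 stayed, and 0 to 127 and 0 to 335 differed in change from 3 and 4 d. The highest of the last counts came without the 6 d array. The first untreated array as reference gave 7111 and 7068, and the 3 late arrays alone 1496 and 1056. The trended robust prior gave 10 and 25 differences from 3 and 4 d, and the filter at 6 (log2) and another quantile normalization gave 0 lower. At least 2-fold at both days were 1683 higher and 1257 lower probe sets, at least 8-fold 127 and 13, and at least 4-fold against the first untreated array 1184 and 300, beside 361 and 117 at 4-fold against the second. The causes were not tested. No paired analysis was possible because each condition is 1 array.

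Of 135 passing genes given with values or names in the text, 22 lost the call in at least 1 fit without 1 array and 3 turned sign, against the first untreated array: *Snhg6* (0.11), *Snhg8* (0.07) and *Zfas1* (0.32). Those that lost the call were *Axin2*, *Ccne1*, *Cdkn1a*, *Cdkn2c*, *Dhps*, *Dohh*, *Fgf15*, *Gnl3*, *Hoxb2*, *Ldha*, *Lefty1*, *Nanog*, *Ncam1*, *Pdgfrb*, *Plat*, *Rec8*, *Sesn1*, *Snhg3*, *Spo11*, *Tex30*, *Tfdp2* and *Utf1*. The other sign changes were in genes that did not pass. Against the first untreated array they were *Azin1* (0.38), *Cryab* (-0.50), *Dnmt1* (0.33), *Gata4* (-0.07), *Mcf2* (1.54), *Meg3* (0.94), *Ncl* (0.22), *Rarg* (-0.13), *Rdh10* (-0.02), *Ryr3* (1.44), *Tap1* (-0.06) and *Zmat4* (0.65). Against the mean of both untreated arrays they were *Azin1* (0.14), *Dnmt1* (0.11), *Mcf2* (0.62), *Meg3* (0.31) and *Ryr3* (0.29). With the mean over probe sets they were *Azin1* (0.06), *Cdx2* (0.02), *Dnmt3a* (0.26), *Gata4* (-0.13), *Npm1* (-0.06) and *Tap1* (-0.05), and with another quantile normalization *Dnmt1* (0.01) and *Oaz1* (0.03). With 1 Dox array left out in turn, *Anxa1* ranged from -0.31 to 1.80, *Azin1* from -0.30 to 0.09, *Col1a1* from -0.00 to 0.56, *Cryab* from -0.52 to 1.65, *Id1* from -0.37 to 1.65, *Krt8* from -0.14 to 1.98, *Mcf2* from -1.19 to 0.58, *Meg3* from -1.14 to 0.49, *Mycn* from -1.25 to 0.82, *Npm1* from -0.03 to 0.09, *Pou5f1* from -0.28 to 0.18, *Slc11a1* from -0.61 to 1.09 and *Tdrd5* from -0.01 to 0.30, with the sign turning without the 6 d array for *Npm1* and *Slc11a1* and without the 8 d array for the others.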
